A study of Homo sapiens with 6 samples.

Results

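The genes described are 10 members of the amino acid stress response that the transcription factor ATF4 drives: ATF3, ATF4, DDIT3, TRIB3, CHAC1, ASNS, PSAT1, PHGDH, SESN2 and DDIT4. They were found by gene symbol among the 57736 genes of the deposited expected count table, and all 10 were present, each on 1 row. The cells were AALE, a human bronchial line of basal type, made to divide without limit by SV40 genes and hTERT and grown in small airway medium. The 3 NRG1 libraries came from stable pools transduced with a lentiviral vector that overexpresses NRG1, a ligand of ERBB receptors. The 3 control libraries came from stable pools with a lentiviral control vector, so all cells carried a vector, SV40 genes and hTERT. The labels do not say whether replicates came from separate pools or cultures, so p-values reflect how far these libraries vary, and that variation could be technical.

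When amino acids run short, when unfolded protein builds up in the endoplasmic reticulum, or when heme or double-stranded RNA signals trouble, dedicated kinases phosphorylate the translation factor eIF2. General translation then slows while the ATF4 messenger is translated more, and the ATF4 protein turns on genes for amino acid synthesis, amino acid uptake and feedback control. ATF4 activity is therefore set largely at translation, which polyA RNA does not measure.

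ATF4 itself had nearly the same level in 5 libraries. DDIT3 and ATF3 were highest and ATF4, CHAC1 and DDIT4 lowest in 1 control library. SESN2 was the gene whose groups did not overlap, lower in NRG1, as for 10.2% of all tested genes. Of the 10 genes, 0 reached an adjusted p under 0.05 in edgeR's quasi-likelihood test (Benjamini-Hochberg method, 15421 genes tested), against 0.00648% of all genes, which is NRG1 itself. The count was also 0 without control 3. All 10 genes passed the filter on low counts, with 276 to 12465 expected counts in a library. At an unadjusted p under 0.05, 2 were lower with NRG1 (ATF3 and DDIT3) and 0 higher, where 6.72% of all tested genes were lower and 5.07% higher. DESeq2 also called 0 of the 10, against 1.36% of all genes. The fitted log2 fold change, NRG1 over control, was below 0 in 8 of the 10 genes and in 50.0% of all genes, with a median of -0.25 over the 10 and 0.00 over all genes. Without control 2, 6 of the 10 were below 0 and their median was -0.14. The groups also overlapped in the median log2 level of the 10 genes per library. With each gene's control average set to 0, NRG1 1 to 3 stood at 0.00, -0.18 and -0.27. Control 1 to 3 stood at -0.07, 0.29 and -0.09.

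Library totals were between 8612234 and 13207620 expected counts, and NRG1 separated the groups in every library (log2 fold change 8.80, SE 0.38, adjusted p = 0.00012 in edgeR's quasi-likelihood test). The airway basal keratin KRT5 had 3141 to 3883 CPM in NRG1 and 3302 to 6952 CPM in control libraries, where CPM is a count scaled to library size with TMM, a method that balances library composition. The 10 airway basal markers summed to 6516 to 8280 CPM in NRG1 and 9653 to 14540 CPM in control libraries, but the markers did not move together. In DESeq2 KRT17 (log2 fold change -1.0 in edgeR, DESeq2 adjusted p = 2.05e-06) and KRT14 (-2.45, 0.000788) were called lower and KRT15 (2.30, 0.00773) higher with NRG1, while edgeR called 0 of the 10, and the part of these markers in the levels of the stress genes was not tested. The 7 leukocyte markers summed to 9.77 to 27.9 CPM in NRG1 and 22.1 to 34.2 CPM in control, nearly all of it CD68 and CD14, with CD3E and TYROBP at 0 in all libraries. The 5 endothelial markers in the table summed to 2.24 to 4.08 CPM in NRG1 and 1.08 to 2.10 CPM in control, with CLDN5 at up to 3.46 CPM and CDH5 at 0. Within each group 1 library differed most from the rest, control 3 and NRG1 1. Per gene, the chi-square of count differences was 65.7 and 56.3 for control 3 against control 1 and control 2, and 43.2 and 38.1 for NRG1 1 against NRG1 2 and NRG1 3. It was 18.8 between control 1 and control 2 and 2.66 between NRG1 2 and NRG1 3, where a value of 1 is sampling noise, so NRG1 2 and NRG1 3 were close to each other but not the same library.

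TGATGNAA is the core of the element bound by ATF4 with C/EBP partners, and TGANTCA is the AP-1 element bound by JUN and FOS proteins. Within the 250 bases before a transcription start listed by RefSeq, 3 of the 10 genes carry TGATGNAA: ASNS, CHAC1 and ATF3. DDIT3 carries TGANTCA. Of all such windows, 3.14% hold TGATGNAA and 6.57% hold TGANTCA. The matches are shown because these genes ranked differently in control 3, where DDIT3 and ATF3 were highest, CHAC1 lowest and ASNS between. A link between motif and rank was not tested. Each stretch holds the match in capitals with up to 11 bases on either side, on the gene's strand of GRCh38.p14.
ASNS (chr7:97872458-97872487, minus strand): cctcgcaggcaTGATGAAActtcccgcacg
CHAC1 (chr15:40953251-40953280, plus strand): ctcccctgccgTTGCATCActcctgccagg
ATF3 (chr1:212565205-212565234, plus strand): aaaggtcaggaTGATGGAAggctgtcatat
DDIT3 (chr12:57520738-57520764, minus strand): gcgcgcgcaTGACTCAcccacctcctc

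The matches begin 68 bases (ASNS), 209 bases (CHAC1), 191 bases (ATF3) and 241 bases (DDIT3) before the start, and the CHAC1 match reads on the opposite strand. Both motifs were searched on both strands. RefSeq listed 16 windows for the 10 genes. TGATGNAA was in 3 of these 16 windows, against 3.14% of all 35116 windows of that length. TGANTCA was in 2 of the 16, both of DDIT3, against 6.57%. A match is a run of letters, not a measured binding site, and the files behind the counts use hg19, so these coordinates are not on their build.

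ATF4, the factor at the head of the response, had a level that was nearly constant in 5 of the libraries. It stood at 569, 547 and 518 CPM in NRG1 1 to 3 and at 515, 533 and 202 CPM in control 1 to 3. Control 3 was 2.55-fold below the lowest of the other libraries, and the NRG1 libraries were above or inside the range of the other controls. The means were 545 ± 25.9 CPM in NRG1 and 417 ± 186 CPM in control (SD, n = 3 each). The fitted log2 fold change was 0.39 (SE 0.32, 95% interval -0.36 to 1.13, adjusted p = 0.637 in edgeR), and it was 0.05 without control 3.

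DDIT3, which encodes the factor CHOP that ATF4 turns on under lasting stress, went the other way in control 3. Its levels were 39.3, 42.9 and 48.7 CPM in NRG1 1 to 3 and 37.7, 72.0 and 227 CPM in control 1 to 3. The groups overlapped through control 1, and control 3 was 3.16-fold above the highest other library. The log2 fold change was -1.36 (SE 0.56, 95% interval -2.65 to -0.07, unadjusted p = 0.0406, adjusted p = 0.412 in edgeR) and was -0.33 without control 3. DDIT3 exons share 355 bases with exons of MARS1 on the opposite strand and 58 bases with exons of MBD6, also opposite, and the kit does not mark strand. In control 3 MARS1 was lowest, at 280 CPM against 345 to 431 CPM in the other libraries, while MBD6 was highest, at 87.6 CPM against 52.0 to 72.4 CPM, and the part of such reads in the DDIT3 level was not tested. The ratio of DDIT3 to ATF4 counts within a library was 0.0691, 0.0784 and 0.0942 in NRG1 1 to 3 and 0.0732, 0.135 and 1.12 in control 1 to 3.

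ATF3, a factor induced by ATF4 and also by growth factor signals, was like DDIT3 lowest in control 1 and highest in control 3 among controls. It was at 50.7, 30.6 and 29.96 CPM in NRG1 1 to 3 and at 34.7, 64.7 and 123 CPM in control 1 to 3. NRG1 1 lay between control 1 and control 2, so the groups overlapped. The log2 fold change was -1.0 (SE 0.43, 95% interval -2.0 to -0.01, unadjusted p = 0.0486, adjusted p = 0.422 in edgeR) and was -0.43 without control 3. The 12 immediate early genes examined, among them JUN, JUNB, EGR2 and NR4A1, summed to 2486, 968 and 827 CPM in NRG1 1 to 3 and to 885, 1012 and 7694 CPM in control 1 to 3. Their median log2 fold change was -0.90, and the median was 0.39 without control 3. With all 6 libraries 0 of 12 passed the test, against 0.00648% of all tested genes. ATF3 was thus highest in control 3 among controls and in NRG1 1 among NRG1 libraries, the same libraries in which that sum was highest, and the part of these signals in the ATF3 level was not tested.

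TRIB3, a pseudokinase that ATF4 and CHOP induce and that restrains ATF4 in turn, was highest in control 2. It was at 468, 374 and 372 CPM in NRG1 1 to 3 and at 309, 621 and 417 CPM in control 1 to 3. All 3 NRG1 libraries lay inside the control range. The log2 fold change was -0.15 (SE 0.25, 95% interval -0.72 to 0.42, adjusted p = 0.823 in edgeR) and turned to 0.16 without control 2.

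CHAC1, an enzyme that breaks down glutathione and is a target of ATF4 and CHOP, differed most between controls next to DDIT3. It was at 105, 86.0 and 72.6 CPM in NRG1 1 to 3 and at 171, 142 and 31.0 CPM in control 1 to 3. Control 1 and control 2 lay above all NRG1 libraries and control 3 lay below them. The log2 fold change was -0.38 (SE 0.51, 95% interval -1.55 to 0.79, adjusted p = 0.776 in edgeR), 0.03 without control 1 and -0.84 without control 3 (adjusted p = 0.373). With control 3 and NRG1 1 both left out, leaving 2 libraries a group, CHAC1 was called lower (log2 fold change -0.98, adjusted p = 0.00807 in edgeR), as were 4.77% of all genes, while 9.8% of all genes were called in either direction. Over all alternatives the adjusted p for CHAC1 ran from 0.00807 to 0.985, and leaving out libraries because they stand apart makes p-values too small by an unknown amount.

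**Figure D1:**
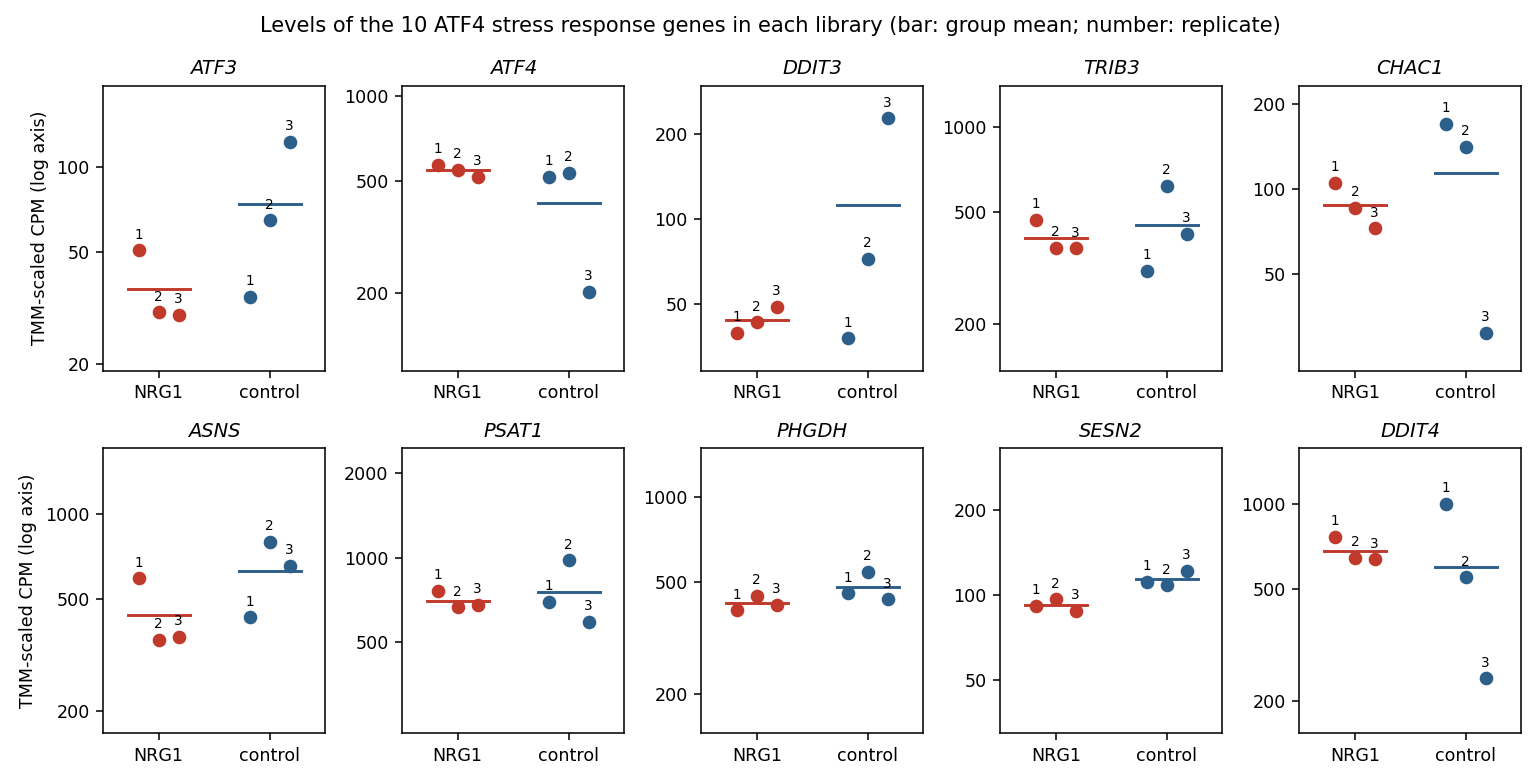
TMM-scaled CPM (log axis) of the 10 genes in the 3 NRG1 libraries (left, red) and the 3 control libraries (right, blue), with the replicate number at each point and a bar at the group mean. Control 3 is lowest for ATF4, CHAC1, PSAT1 and DDIT4 and highest for ATF3, DDIT3 and SESN2, while the NRG1 libraries lie closer together than the controls, though by little for ASNS, where NRG1 1 is well above NRG1 2 and NRG1 3.

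ASNS makes asparagine from aspartate and is a standard readout of amino acid shortage. It was at 591, 357 and 366 CPM in NRG1 1 to 3 and at 430, 795 and 654 CPM in control 1 to 3. NRG1 2 and NRG1 3 lay below every control, and NRG1 1 lay between control 1 and control 3. The log2 fold change was -0.52 (SE 0.28, 95% interval -1.15 to 0.12, adjusted p = 0.478 in edgeR). A fit with a quality weight per library (limma-voom, 10.4% of all genes called) called it lower, at -0.73 with an adjusted p of 0.0409, and over all alternatives the adjusted p ran from 0.0409 to 0.86.

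PHGDH and PSAT1 catalyse the first steps of serine synthesis from a glycolytic intermediate, and their intervals were among the narrowest of the 10. PHGDH was at 398, 448 and 417 CPM in NRG1 1 to 3 and at 457, 546 and 435 CPM in control 1 to 3, with NRG1 2 above control 3. PSAT1 was at 762, 666 and 680 CPM in NRG1 1 to 3 and at 696, 978 and 593 CPM in control 1 to 3, so that the NRG1 libraries lay inside the control range. Their log2 fold changes were -0.19 (95% interval -0.53 to 0.15) for PHGDH and -0.10 (95% interval -0.57 to 0.36) for PSAT1. Both intervals span 0 and leave out a 2-fold difference in either direction, and the PSAT1 value turned to 0.12 without control 2.

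SESN2 and DDIT4 are stress-induced inhibitors of the growth kinase complex mTORC1. SESN2, a leucine sensor, was at 91.6, 96.4 and 87.8 CPM in NRG1 1 to 3 and at 111, 108 and 121 CPM in control 1 to 3. It was the member of the 10 whose groups did not overlap, lower in NRG1, which holds for 10.2% of all tested genes. Its log2 fold change was small, -0.30 (SE 0.14, 95% interval -0.63 to 0.02, adjusted p = 0.442 in edgeR), and it stayed between -0.34 and -0.26 when any library was left out. DDIT4, also induced by low oxygen and glucocorticoids, was at 766, 646 and 637 CPM in NRG1 1 to 3 and at 1005, 551 and 241 CPM in control 1 to 3. The NRG1 libraries all lay inside the control range, and the log2 fold change of 0.19 (SE 0.42, 95% interval -0.78 to 1.16, adjusted p = 0.874 in edgeR) turned to -0.20 without control 3. Exons of DDIT4 share 847 bases with the antisense gene DDIT4-AS1, whose counts cannot be told apart from its own without strand; that gene was at 28.4 CPM in control 3 and at 86.95 to 111 CPM in the other libraries.

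**Figure D2:**
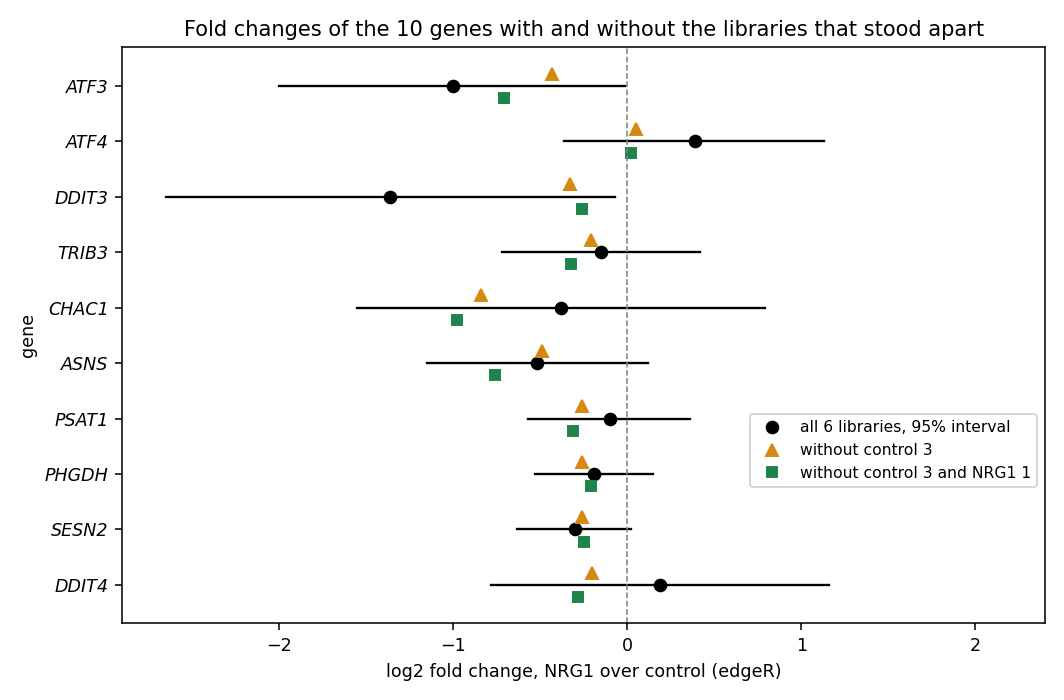
Log2 fold change (NRG1 over control) of the 10 genes from edgeR with all 6 libraries and its 95% interval (black), without control 3 (orange triangles) and without control 3 and NRG1 1 (green squares). Leaving out control 3 brings ATF4 to 0.05, DDIT3 to -0.33 and ATF3 to -0.43, and turns DDIT4 to -0.20.

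The 10 genes therefore did not share a pattern over the libraries. Control 3 was the lowest library for ATF4, CHAC1, PSAT1 and DDIT4 and the highest for ATF3, DDIT3 and SESN2, and control 2 was the highest for TRIB3, ASNS, PSAT1 and PHGDH. Control 3 was the lowest library for 28.3% of all tested genes and the highest for 29.9%, and control 2 was the highest for 10.7%. It lay at least 2-fold below every other library for ATF4, CHAC1 and DDIT4, as for 4.82% of all tested genes, and at least 2-fold above for DDIT3, as for 3.16%. ATF5, another factor of the response, was also low there, at 4.40 CPM against 21.1 to 26.0 CPM in the other 5 libraries. CHAC1 was 5.51-fold and DDIT3 6.02-fold apart between the highest and lowest control, and SESN2 was 1.12-fold apart.

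The spread within groups was unequal. The SD of log2 CPM was larger in control than in NRG1 for all 10 genes, against 56.6% of all tested genes. The median SD over the 10 genes was 0.15 in NRG1 and 0.65 in control, while over all tested genes it was 0.25 in NRG1 and 0.31 in control. Between NRG1 2 and NRG1 3 alone the median SD was 0.04 over the 10 genes and 0.08 over all genes, and between control 1 and control 2 alone it was 0.48 over the 10 genes and 0.16 over all genes. As a median over the 10 genes, the wide spread in controls was thus also present without control 3, but not for each gene. The ratio of control 2 to control 1 ran from 0.548 (DDIT4) to 2.01 (TRIB3). It was 1.03 for ATF4, 0.974 for SESN2 and 0.829 for CHAC1.

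Per length of annotated exon, the levels of the 10 genes spanned a wide range. In NRG1 libraries the mean CPM per kilobase was 332 ± 35.03 for DDIT4, 321 ± 23.6 for PSAT1, 217 ± 10.3 for ATF4, 118 ± 16.1 for TRIB3 and 98.3 ± 29.7 for ASNS (SD, n = 3). The other 5 genes were lower, at 45.7 for PHGDH, 42.7 for CHAC1, 33.4 for DDIT3, 26.6 for SESN2 and 9.18 for ATF3. DDIT4 and PSAT1, and likewise TRIB3 and ASNS, did not differ beyond their SD in NRG1. These SDs, and those for controls below, are between libraries. They do not settle the order of genes within a library, which was not tested. In control libraries PSAT1 was at 345 ± 91.2, DDIT4 at 291 ± 187, ATF4 at 166 ± 74.0, ASNS at 141 ± 41.3 and TRIB3 at 131 ± 46.1, and neighbours among these 5 did not differ beyond their SD. DDIT3 was at 85.9, CHAC1 at 55.6, PHGDH at 52.0, SESN2 at 32.9 and ATF3 at 18.3. Lengths are unions of all GENCODE 29 exons, which overstate the length of the transcript in use, and not equally for each gene. The union was 9217 bases for PHGDH and from 1307 (DDIT3) to 4455 (ASNS) for the others. The rank of PHGDH thus rests on its annotated length. Before scaling to length its NRG1 mean was 420.8 CPM, against 404.5 CPM for TRIB3. Rows named as ATF4 pseudogenes held 220 expected counts in all, against 29515 for ATF4. Such counts do not show how shared reads were allotted, and their part in the ATF4 level was not tested.

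Upstream of ATF4, 0 of 11 tested genes passed the test in either direction, against 0.00648% of all tested genes. This list held the kinases and phosphatase subunits of eIF2, a subunit of eIF2 itself and regulators of the kinases. At an unadjusted p under 0.05, IMPACT and EIF2AK1 were higher and 0 were lower. IMPACT, an inhibitor of the amino acid sensing kinase GCN2, was at 64.9, 50.4 and 52.5 CPM in NRG1 1 to 3 and at 39.9, 41.9 and 29.03 CPM in control 1 to 3 (log2 fold change 0.60, SE 0.21, adjusted p = 0.365 in edgeR). EIF2AK1, the heme-regulated eIF2 kinase, was at 452, 450 and 447 CPM in NRG1 1 to 3 and at 398, 360 and 308 CPM in control 1 to 3 (log2 fold change 0.34, SE 0.15, adjusted p = 0.421 in edgeR). These 2 were the genes of the list whose groups did not overlap, against 9.36% of all tested genes that were higher without overlap. EIF2AK3, the kinase PERK of the endoplasmic reticulum, was at 31.7, 31.9 and 32.1 CPM in NRG1 1 to 3 and at 30.5, 32.2 and 90.3 CPM in control 1 to 3. PPP1R15A, the stress-induced phosphatase subunit GADD34 that reverses the signal, was at 168, 84.3 and 78.7 CPM in NRG1 1 to 3 and at 63.4, 163 and 371 CPM in control 1 to 3, and is named after its values were seen.

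**Figure D3:**
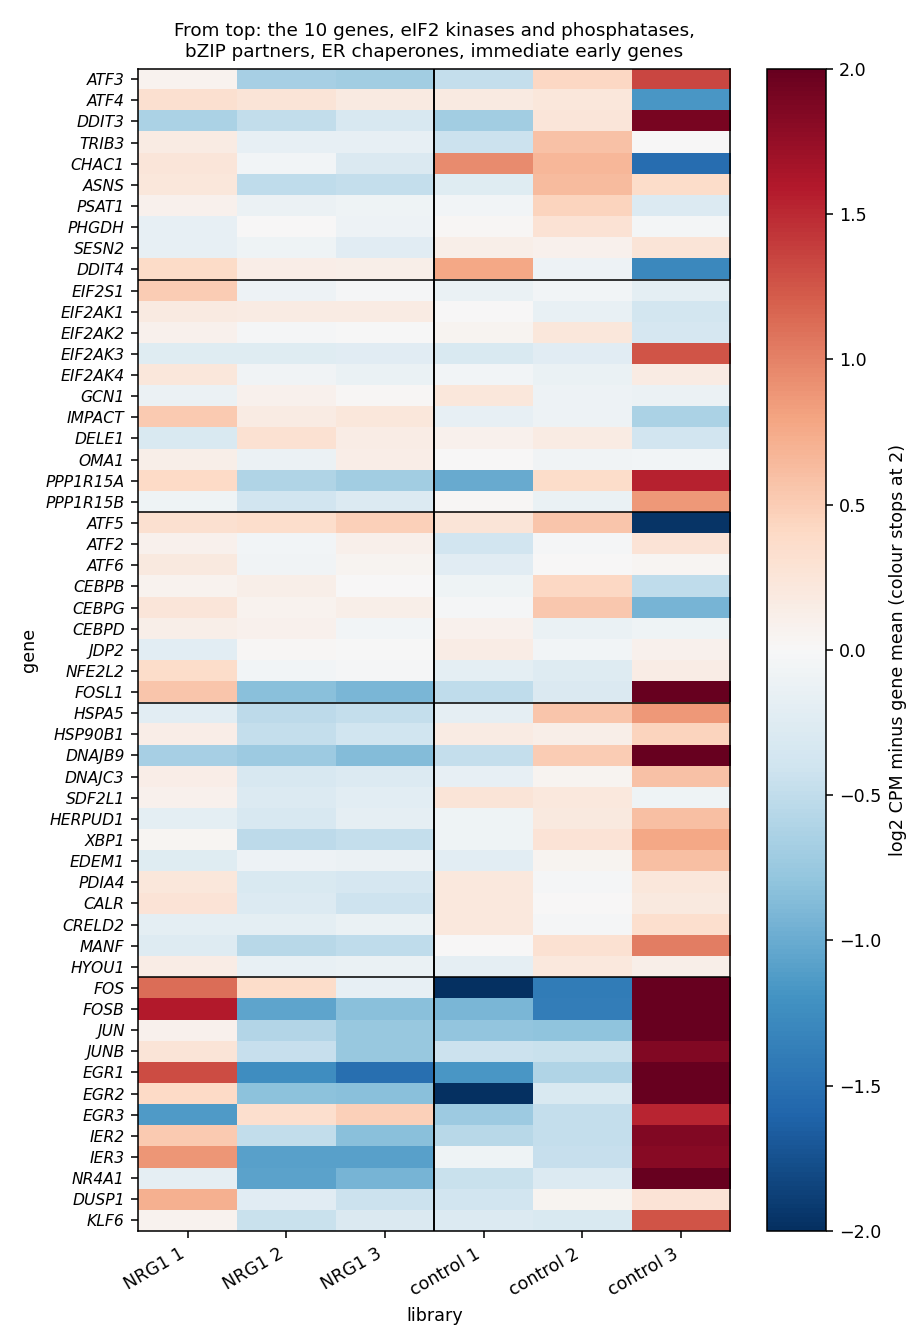
Log2 CPM minus the gene's mean over the 6 libraries (columns, NRG1 1 to 3 left of control 1 to 3) for the 10 genes and the tested genes of 4 further lists, with colours that stop at 2 in either direction. In control 3, ATF4, CHAC1, DDIT4 and ATF5 are low while ATF3, DDIT3, EIF2AK3, DNAJB9 and most of the immediate early genes are high.

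Downstream targets outside the 10 gave no call either. In edgeR 0.00648% of all tested genes were called, NRG1 alone, so 0 calls do not set these lists apart. Of 9 amino acid transporters, 0 passed the test, and 8 had a log2 fold change below 0, against 50.0% of all genes. With 1 library left out, from 5 (without control 1 or NRG1 3) to 9 (without control 3) were below 0. With all 6 libraries 2 lay below all controls, against 10.2% of all genes. SLC1A4, a carrier of small neutral amino acids, was at 109, 94.7 and 82.1 CPM in NRG1 1 to 3 and at 132, 139 and 122 CPM in control 1 to 3 (log2 fold change -0.46, SE 0.16, adjusted p = 0.365 in edgeR). SLC3A2, the heavy chain shared by several exchangers, was at 1041, 1035 and 1012 CPM in NRG1 1 to 3 and at 1148, 1150 and 1588 CPM in control 1 to 3. The median log2 fold change of the list was -0.06.

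Among 11 enzymes of serine, one-carbon, proline and sulfur amino acid metabolism 0 passed, against 0.00648% of all genes. Their median was -0.16. CTH, which makes cysteine from cystathionine, was at 17.6, 9.25 and 11.8 CPM in NRG1 1 to 3 and at 18.5, 26.5 and 18.9 CPM in control 1 to 3 (log2 fold change -0.73, SE 0.30, adjusted p = 0.411 in edgeR), below all controls. PYCR1, an enzyme of proline synthesis, was likewise below all controls, at 74.8 to 82.2 CPM in NRG1 and 84.9 to 113 CPM in control, so that 2 of 11 did not overlap, against 10.2% of all genes. Of 13 genes for tRNA synthetases and tRNA export, 0 passed, 0 had an unadjusted p under 0.05, and the median was 0.05. Of 12 other genes listed as targets and tested, 0 passed and the median was -0.04. SESN3, a relative of SESN2, had -0.63 (SE 0.23) and CARS2, a mitochondrial tRNA synthetase, 0.59 (SE 0.22). Whether ATF4 drives each listed gene in these cells was not tested. The 9 bZIP partners gave 0 calls and a median of 0.09.

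Chaperones and factors of the unfolded protein response's other arms had log2 fold changes below 0 in 13 of 13, against 50.0% of all genes. Their median was -0.36, and 0 passed the test in edgeR, against 0.00648% of all genes. At an unadjusted p under 0.05, 6 were lower and 0 higher, against 6.72% and 5.07% of all genes, and DESeq2 called DNAJB9 lower (adjusted p = 0.0399). HSPA5, the chaperone BiP, was at 1061, 851 and 880 CPM in NRG1 1 to 3 and at 1087, 1799 and 2226 CPM in control 1 to 3 (log2 fold change -0.87, SE 0.26, adjusted p = 0.335 in edgeR). DNAJB9, a cochaperone induced by IRE1 and XBP1, was at 23.4, 22.1 and 20.2 CPM in NRG1 1 to 3 and at 26.7, 52.8 and 171 CPM in control 1 to 3. Without control 3 the median was -0.30, with 13 of 13 below 0 and 3 lower at an unadjusted p under 0.05. MANF, a secreted factor of the endoplasmic reticulum, was at 71.0, 57.7 and 59.6 CPM in NRG1 1 to 3 and at 85.3, 105 and 172 CPM in control 1 to 3. The groups did not overlap, lower in NRG1, in 5 of the 13 genes, against 10.2% of all genes: these 3, HERPUD1 and CRELD2. Control 3 was the highest control in all 5, and the lowest was control 1 except in CRELD2, where it was control 2.

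**Figure D4:**
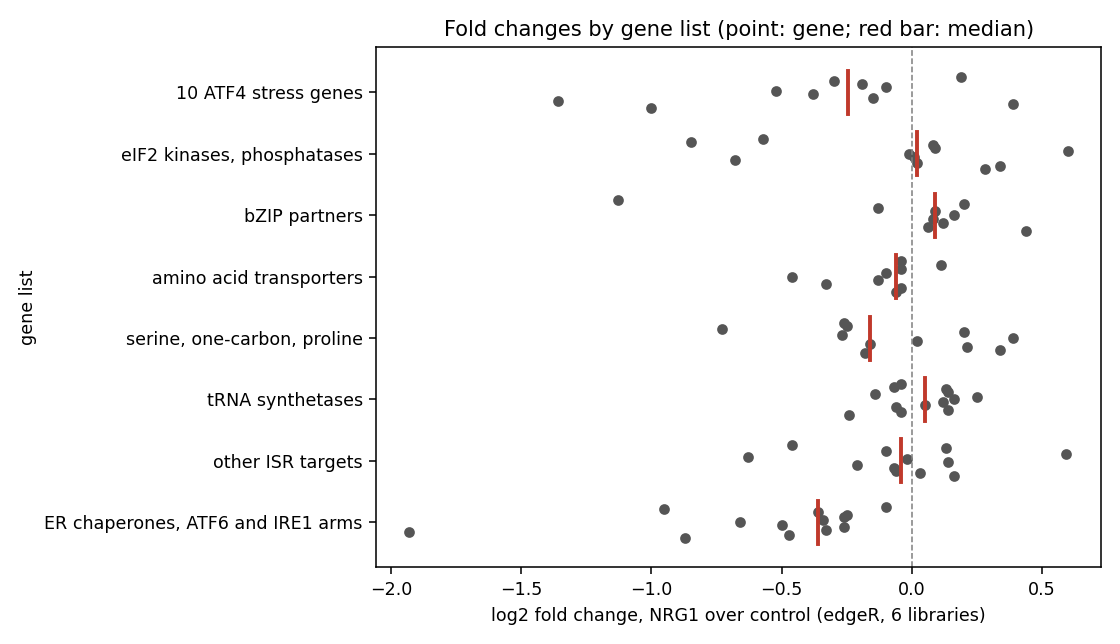
Log2 fold change (NRG1 over control, edgeR with 6 libraries) of each tested gene by list, with a red bar at the list's median. The median is -0.25 for the 10 genes, between -0.16 and 0.09 for the other lists of the ATF4 pathway and -0.36 for the chaperone list.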

How the data were processed

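Per the labels' protocols, a TruSeq kit was used on polyA RNA from 3 NRG1 and 3 control samples, whose titles give group and replicate; the kit is of a type that does not mark strand. The authors deposited expected counts of 57736 genes, not whole and not scaled, and log2 values of 14759 genes, which equalled TMM-scaled log2 CPM (prior count 0.25) to within 4.97e-14. The submitters' processing notes name, without roles, RSEM 1.3.0, STAR 2.5.3a, MultiQC 0.9, FastQC 0.11.3 and hg19, and no annotation.

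Rounded expected counts went into edgeR 4.0.16 under R 4.3.3 (TMM, filterByExpr, quasi-likelihood test, no covariate) over 15421 genes, with Benjamini-Hochberg adjusted p under 0.05 as threshold. SE is the fold change over the root of F. The 15421 genes held at least 99.7% of each library's counts. Levels are TMM-scaled CPM; log2 levels used a prior count of 2. Alternatives used DESeq2 1.42.0 and limma 3.58.1; the second table was turned back to CPM for limma-trend. The fit was tested on simulated data.

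Symbols came from a name table, for 51959 genes. Members and lists were chosen with earlier results of these data known. Named genes were the 10 members, NRG1, up to 4 of each list with the smallest p, and the 5 genes nearest in profile. KRT5, CD3E, TYROBP, CDH5, CLDN5, HERPUD1, CRELD2, PPP1R15A, CEBPG, ADM2 and the genes overlapping members were chosen after their values were seen. So were CEBPB, ATF2, GDF15, SESN1, VLDLR and STC2. Lengths, overlaps and pseudogenes were matched by identifier to GENCODE 29 (GRCh38) or by symbol. In bulk RNA, fewer cells of a type and less RNA per cell cannot be told apart.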

Additional observations from a re-analysis of the deposited data

How the results depend on the processing

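With edgeR and all 6 libraries 1 gene and 0 of the 10 members were called. DESeq2 called 209 genes, no low-count filter 21, limma-voom 2, quality weights 1605 (1 member, ASNS), and 2 against 2 libraries without control 3 and NRG1 1 called 1512 (1 member, CHAC1). Leaving out each library gave 1 to 37 genes, with 37 without NRG1 1, and 0 members. With the replicate number as a block 2 genes and 0 members were called. The labels state no pairing. Deviations of same-numbered libraries correlated at 0.02, 0.12 and -0.08, and those of differently numbered libraries at -0.18 to 0.16. With 3 libraries a group these values cannot settle whether libraries were paired. DDIT4 reversed to -0.04 with quality weights, -0.20 without control 3 and -0.28 in the 2 against 2 comparison; without control 2, TRIB3 reversed to 0.16 and PSAT1 to 0.12, and without control 1 CHAC1 to 0.03. Over the single libraries left out these ranged from -0.20 to 0.78 for DDIT4, -0.36 to 0.16 for TRIB3, -0.26 to 0.12 for PSAT1 and -0.84 to 0.03 for CHAC1. The median over the 10 genes ran from -0.30 to -0.14. For single members, 182 values kept direction and side of the threshold, 6 reversed and 2 passed it. The cause of these changes was not tested, beyond fewer libraries where some were left out.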

Other observations

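The mean profile of the 10 genes, as log2 CPM minus the gene mean, was 0.05, -0.17 and -0.20 in NRG1 1 to 3 and 0.01, 0.35 and -0.04 in control 1 to 3. The genes nearest to it among those tested were DAZAP1, NBDY, PSMD9, GGPS1 and FZD6, with a root mean square difference of 0.023 log2 units for DAZAP1 and of 0.05 to 0.056 for the others over the 6 libraries. Among the 10 genes themselves the difference from their own mean was 0.12 for PSAT1 and PHGDH and 0.90 for DDIT3.

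Some further genes of the response were low in control 3 along with ATF4 and CHAC1, while others were high there. Among the bZIP partners control 3 was lowest for ATF5, CEBPB and CEBPG and highest for ATF2 and FOSL1. Among the other targets it was lowest for EIF4EBP1, VLDLR, STC2, ADM2 and CARS2 and highest for GDF15, SESN1, SESN3 and KLHL24. Of all tested genes, 28.3% were lowest and 29.9% highest in control 3. CEBPG and ADM2 were chosen after their values were seen. CEBPG, a bZIP partner of ATF4, was at 201, 178 and 184 CPM in NRG1 1 to 3 and at 166, 247 and 88.8 CPM in control 1 to 3. ADM2, a secreted peptide induced by ATF4, was at 31.3, 45.8 and 37.8 CPM in NRG1 1 to 3 and at 40.6, 55.6 and 8.96 CPM in control 1 to 3. Fibroblast markers in the table summed to 22.1 to 28.9 CPM in NRG1 and 44.7 to 70.7 CPM in control, and ciliated and secretory markers to 0.618, 0.467 and 46.5 CPM in NRG1 1 to 3 and 0.887, 0.908 and 18.4 CPM in control 1 to 3; their part in the levels of the 10 genes was not tested.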
